A study of Mus musculus with 14 samples.

Results

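The genes described here are 45 genes of DNA replication and S phase, chosen by function: factors that license and fire replication origins, the replicative polymerases with their clamp and clamp loaders, enzymes that finish the new strand and its chromatin, enzymes that supply deoxynucleotides, and E2F transcription factors. All 45 were found by gene ID among the 54446 genes of the deposited count table. RNA came from mouse hearts, from nuclei enriched for PCM1, a protein at the nuclear surface of cardiomyocytes. Outbred ICR mice were given adeno-associated virus serotype 9 (AAV9) into the peritoneum on postnatal day 7, at 1E11 genome copies per virus, and their hearts were collected on postnatal day 12. The YAP5SA_MEF2A group (2 libraries) received a virus for human MEF2A and a virus for YAP5SA, a form of YAP in which inhibitory serines are replaced by alanine so that it stays active. The YAP5SA group (3 libraries) and the MEF2A group (4 libraries) received the virus in their name alone. Control mice (5 libraries) received no virus, so the transgene and the infection itself cannot be told apart in any comparison with Control. Both transgenes were driven by the cardiac troponin T promoter, which is active in cardiomyocytes. Whether each library came from its own animal is not given in the labels. A p-value therefore rests on the spread among libraries alone, and part of that spread may be technical.

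A replication origin is licensed when the origin recognition complex, Cdc6 and Cdt1 load the ring of Mcm2 to Mcm7 proteins onto DNA. It fires when Cdc45 and the GINS complex join that ring to make the moving helicase, and polymerases held by the Pcna clamp then copy both strands. Many of these genes are switched on at the entry into S phase by E2F factors, once the retinoblastoma family proteins release them. In the mouse heart most cardiomyocytes stop dividing soon after birth, and YAP is known for driving their proliferation and MEF2 factors for driving muscle genes.

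Libraries held 16171068 to 24027622 counts. Transcripts encoded in mitochondria took 60.7% and 67.5% of counts in Control 1 and Control 2, 32.2% in YAP5SA 3 and 3.80% to 23.2% in the other 11 libraries. Control 1 and 2 are the only Controls of batch 1, and both YAP5SA_MEF2A libraries are of batch 1. By Xist and Y-linked transcripts, both YAP5SA_MEF2A libraries were female and all 3 YAP5SA libraries male, against 1 male and 3 female MEF2A libraries and 3 male and 2 female Controls. Sex and the second virus can therefore not be told apart between YAP5SA_MEF2A and YAP5SA. All 10 cardiomyocyte markers were detected in each library. Their summed levels were 42546 and 47560 CPM (read counts scaled to the effective library size) in YAP5SA_MEF2A libraries, 29764 to 45169 in YAP5SA libraries, 89105 to 95165 in MEF2A libraries and 54359 to 96645 in Controls.

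Of the 45 genes, 44 passed the filter on low counts. Fen1, the nuclease that trims Okazaki fragments, had 0 counts in all 14 libraries. Its exons hold 2422 bases, and their overlaps with Tmem258 and Gm10143 on the other strand add up to 2039 bases. Bases that overlap both genes are counted for each. The libraries do not record strand, so this 0 is not read as absence of the transcript. Exons of 16 members overlap a gene on the other strand, and reads there cannot be assigned. The longest such overlaps among tested members were in Chaf1a (4648 of 8854 bases, with Ubxn6) and Gins2 (2758 of 4097 bases, with Gse1). Pcna has a processed copy elsewhere in the genome, Pcna-ps2, with 15 to 120 counts per library against 28 to 291 for Pcna, so the level of Pcna is uncertain.

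The summed level of the replication transcripts had its lowest group mean in hearts that received MEF2A alone. The summed level of the members was 1006 and 928 CPM in YAP5SA_MEF2A libraries and 813, 1075 and 914 CPM in YAP5SA libraries. It was 806, 676, 883 and 657 CPM in MEF2A libraries and 1063, 925, 930, 1277 and 988 CPM in Controls. Every Control lay above every MEF2A library in this sum, while the YAP5SA and YAP5SA_MEF2A libraries overlapped the Controls. MEF2A had the lowest of the 4 group means for 38 of the 44 tested members (86.4%), against 28.6% of all 17987 genes tested. No member had its highest mean in MEF2A, while 14 had it in YAP5SA_MEF2A, 13 in YAP5SA and 17 in Control. By single library, MEF2A 4 was the lowest for 15 members and MEF2A 2 for 9, and Control 4 was the highest for 17. In bulk nuclear RNA, fewer nuclei in S phase, less RNA per nucleus and a different mix of cell types cannot be told apart.

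**Figure D1:**
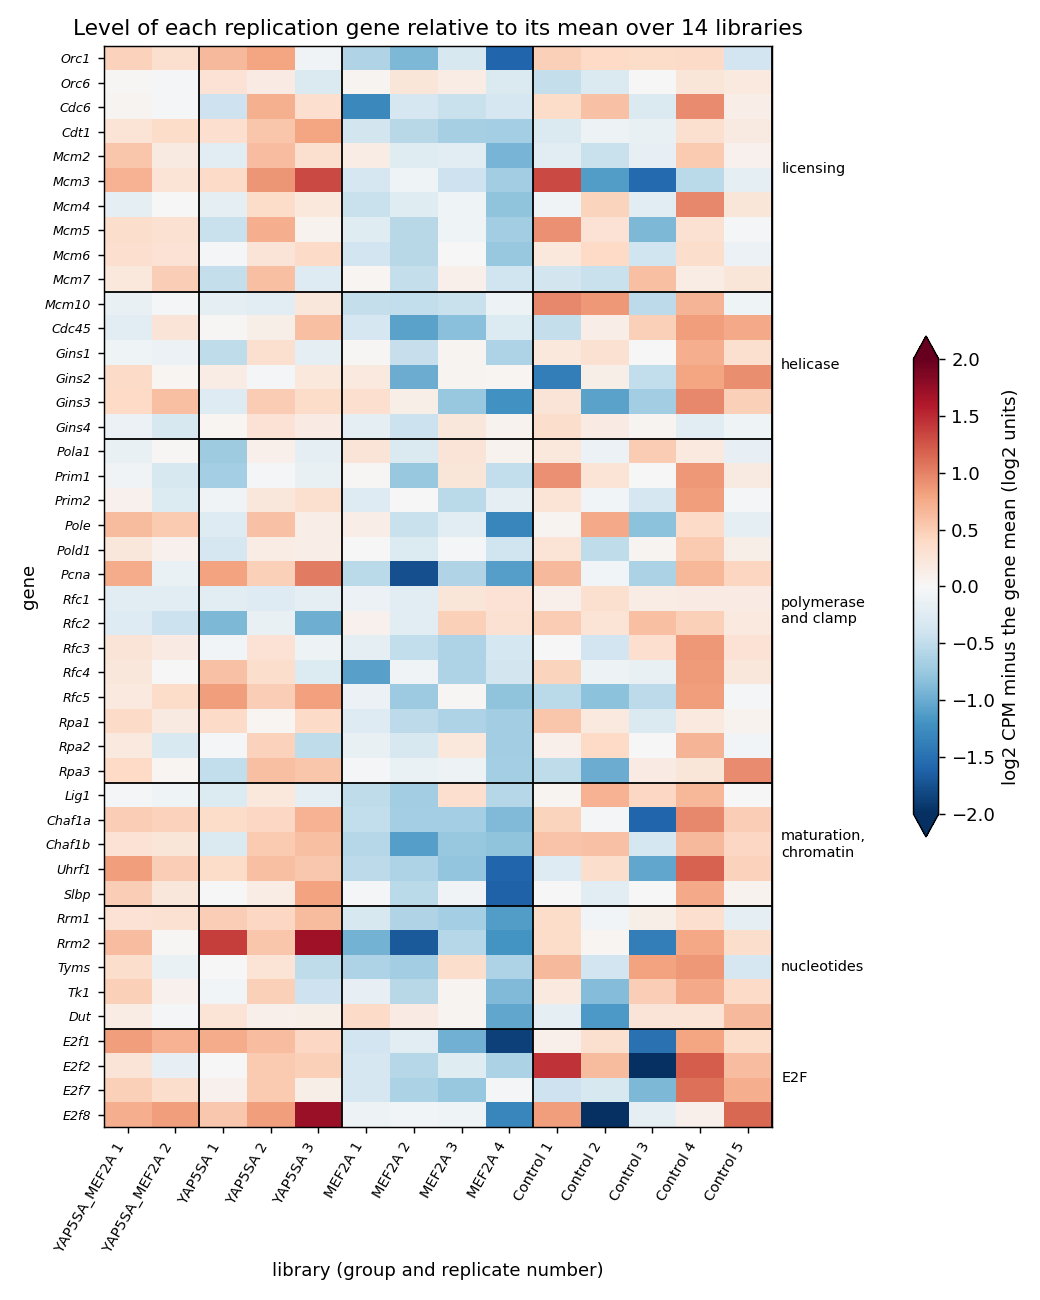
Level of each of the 44 tested members (rows, grouped by role) in each of the 14 libraries (columns, ordered YAP5SA_MEF2A, YAP5SA, MEF2A, Control), shown in colour (red above, blue below) as log2 CPM relative to that gene's mean over the libraries. The 4 MEF2A columns are below the mean for most rows, and Control 4 is above it for most rows.

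YAP5SA against MEF2A asks how the replication genes stand under active YAP compared with a virus carrying a muscle transcription factor. Of the 44 tested members 9 were higher and 1 was lower in YAP5SA at an adjusted p under 0.05, which is 22.7% of members against 14.9% of all genes tested. In the upward direction the shares were 20.5% of members and 7.77% of all genes, and downward 2.27% and 7.12%. At an unadjusted p under 0.05, 16 members (36.4%) were higher, against 15.9% of all genes. The median log2 fold change was 0.54 over the members and 0.08 over all genes. All 3 YAP5SA libraries are male and 3 of 4 MEF2A libraries female, and with sex as a term, chosen after seeing the data, the medians were 0.94 and 0.13. The calls of Orc1, Chaf1b and Rpa1 were then lost (adjusted p from 0.0547 to 0.0634), and Mcm2, Gins3, Chaf1a, Slbp and E2f1 were called higher. The 9 that rose were Cdt1, Orc1, Pcna, Rfc5, Rpa1, Chaf1b, Uhrf1, Rrm1 and Rrm2, and the 1 that fell was Rfc2. For 18 members (40.9%) the lowest YAP5SA library was above the highest MEF2A library, against 15.9% of all genes by this measure too. In batch 1 alone 2 members were called (Orc1 and Rrm2) and in batch 2 alone 4 (Cdt1, Rrm1, Rrm2 and, lower, Rfc2). Leaving out YAP5SA 1, 2 or 3 in turn gave 5, 6 and 3 called members. Leaving out MEF2A 1, 2, 3 or 4 in turn gave 4, 5, 5 and 4, and leaving out either YAP5SA_MEF2A library gave 6. More members passed in other settings, with 14 when only the compared groups were fitted or Control 1 and 2 were left out, and 13 by DESeq2. Over the 29 alternative settings, E2f1 was called in 11, Chaf1a in 9, Mcm3 in 5, E2f8 in 3, Cdc45 in 2, and Gins3, Mcm2 and Slbp in 1 each, all of them higher.

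MEF2A against Control had 0 members called, with 3 of 17987 genes (0.0167%) called in all. Of the 44 members 43 had a log2 fold change below 0, with a median of -0.58 against 0.02 over all genes. At an unadjusted p under 0.05 in edgeR's test 19 members (43.2%) were lower and 0 higher, against 3.85% of all genes lower. The smallest adjusted p was 0.402, for Rrm1 and Chaf1b, which were the 2 members DESeq2 called. Without Control 3, 2 members passed, Chaf1b (-1.34) and E2f2 (-1.44). In 4 members, Cdc6, Cdt1, Chaf1b and Rrm1, the highest MEF2A library was below the lowest Control. That is 9.09% of members and 0.945% of all genes.

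**Figure D2:**
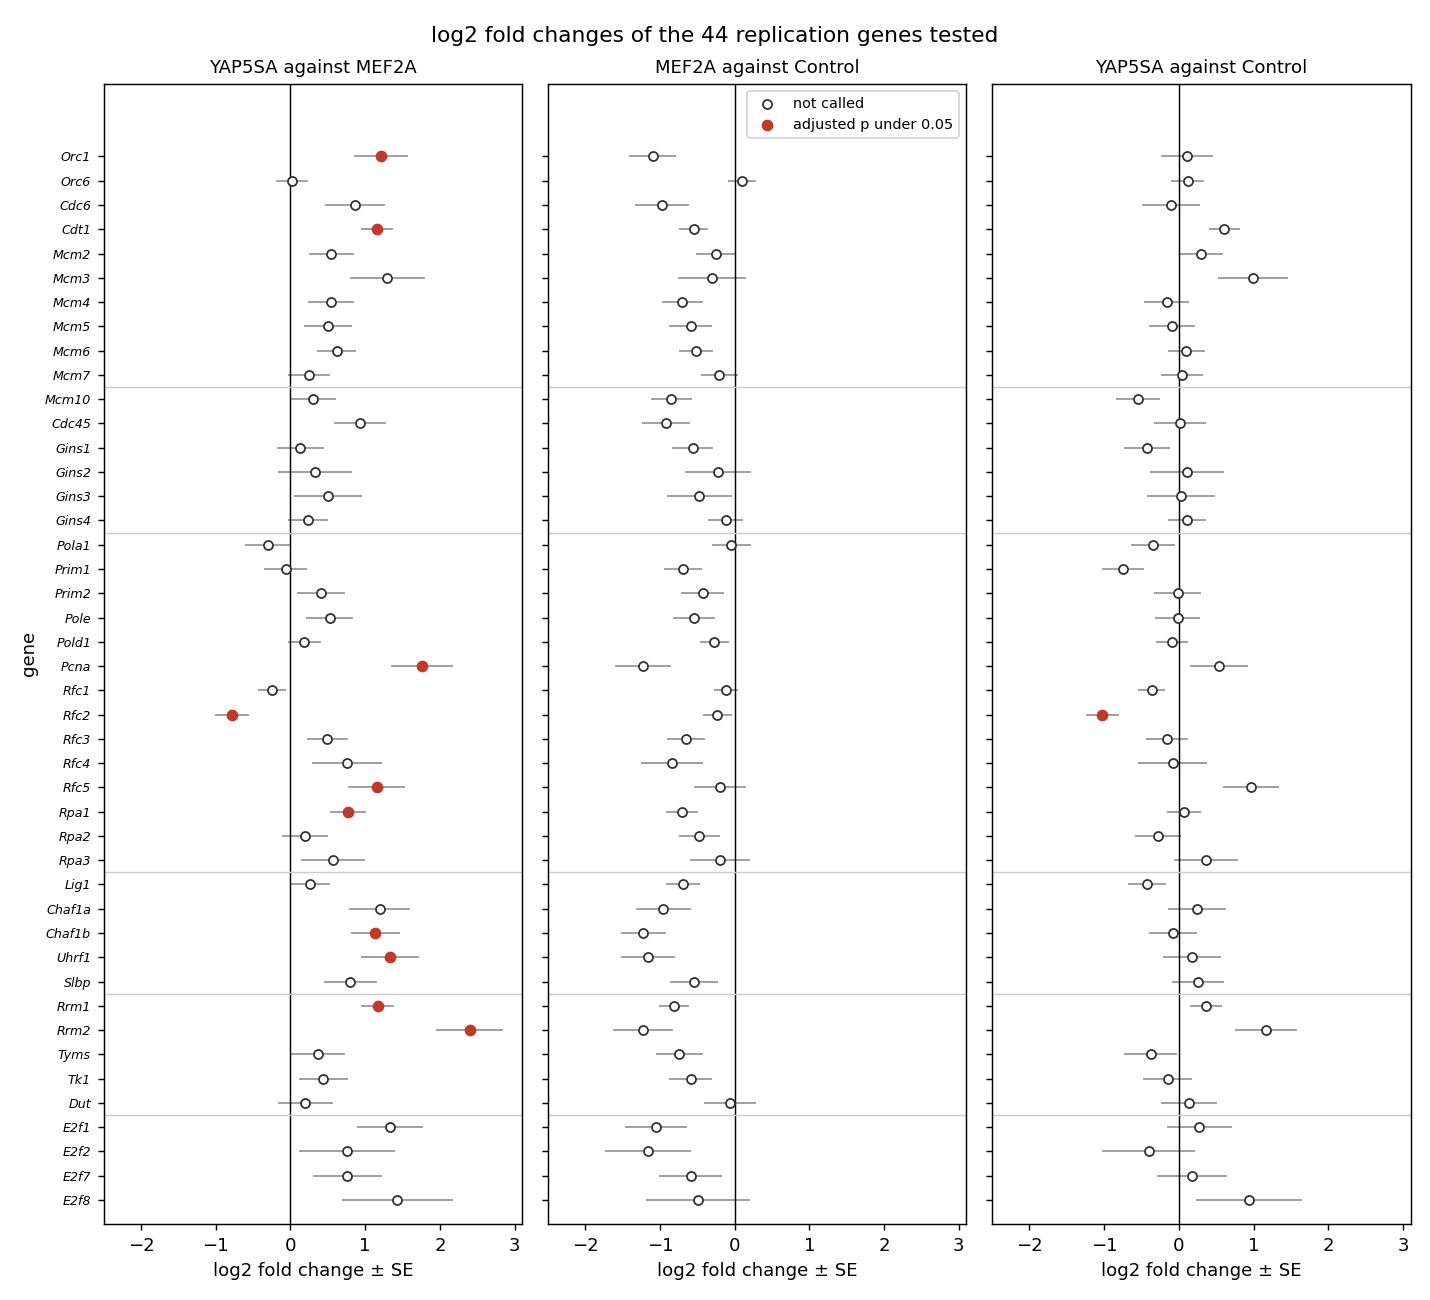
Log2 fold change (horizontal axis) of each tested member (rows) in YAP5SA against MEF2A, MEF2A against Control and YAP5SA against Control, with bars of 1 SE from the fit over 14 libraries and filled points for adjusted p under 0.05. In YAP5SA against MEF2A 40 of 44 points lie above 0 with 10 filled, in MEF2A against Control 43 lie below 0 with none filled, and in YAP5SA against Control 24 lie above 0 with 1 filled; each pair of panels shares the libraries of 1 group.

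YAP5SA against Control called 1 member, Rfc2, which fell. That is 2.27% of members against 9.86% of all genes, of which 4.17% were lower. The members' median log2 fold change of 0.04 was close to the 0.06 of all genes, with 24 members above 0 and 20 below. At an unadjusted p under 0.05, Cdt1, Rrm2 and Rfc5 (6.82% of members, 14.1% of all genes) were higher and Rfc2 and Prim1 (4.55% of members, 11.3% of all genes) lower. Without YAP5SA 1 or YAP5SA 3, 0 members were called. Without Control 1, Control 4 or YAP5SA 2, 2 were: Rfc2 and, higher, Mcm3 (1.75), Rfc5 (1.23) or Rrm2 (1.39). Only Cdt1 and Rrm1 were above the highest Control in every YAP5SA library, and only Prim1, Rfc1 and Rfc2 were below the lowest Control in every one (4.55% and 6.82% of members, against 8.51% and 5.13% of all genes).

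YAP5SA_MEF2A against Control called 0 members (1.36% of all genes were called), with 1 member, Rfc2, lower at an unadjusted p under 0.05 in edgeR (5.45% of all genes) and 0 called by DESeq2. The median was 0.06, against 0.01 over all genes. Gins1, Prim1, Rfc1, Rfc2 and Lig1 were below the lowest Control in both libraries, which is 11.4% of members against 8.43% of all genes. In batch 1 alone 1 member was called, Mcm10 (-1.05), which was called there in MEF2A against Control (-1.44) and in YAP5SA against Control (-1.17) too. The Controls of that batch are the 2 libraries with most mitochondrial counts, and their part in this was not tested.

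YAP5SA_MEF2A against MEF2A called 0 members, against 2.32% of all genes. The median was 0.66 over members and 0.05 over all genes, and 39 of 44 members were above 0. At an unadjusted p under 0.05, 14 members (31.8%) were higher, against 8.72% of all genes, and DESeq2 called 3 (Cdt1, Rrm1 and Uhrf1). The lowest adjusted p was 0.0554, for Cdt1. Without Control 3, 4 members were called (Cdt1, Chaf1a, Rrm2 and Uhrf1), and without YAP5SA 2, 1 (Cdt1). In 29 members (65.9%) both YAP5SA_MEF2A libraries were above all 4 MEF2A libraries, against 22.8% of all genes. In 1 member, Rfc2 (2.27%), both were below them, against 18.3% of all genes.

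YAP5SA_MEF2A against YAP5SA called 0 members and 0% of all genes, with 0 members at an unadjusted p under 0.05 in edgeR (2.87% of all genes) and 0 by DESeq2. The member median was -0.01. In 3 members, Gins4, Rfc5 and Rrm1 (6.82%), both YAP5SA_MEF2A libraries were below all YAP5SA libraries, against 8.79% of all genes. The interaction compares the effect of adding MEF2A in the presence of YAP5SA with its effect in its absence (a positive value means a more positive effect beside YAP5SA), and it also called 0 members and 0% of all genes. Its median was 0.60 over members and 0.01 over all genes, with 40 of 44 members above 0. At an unadjusted p under 0.05 it had 3 members above 0, Chaf1b, Uhrf1 and Rfc3 (6.82%, against 1.15% of all genes), and DESeq2 called 0. The interaction takes in the difference in sex between YAP5SA_MEF2A and YAP5SA libraries, and that between virus and no virus in MEF2A against Control. Neither was separated there from the effect of MEF2A. Comparisons that share the Control or the MEF2A libraries are not independent of each other.

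The 10 origin licensing genes summed to 278 and 279 CPM in YAP5SA_MEF2A libraries, 231, 334 and 258 in YAP5SA libraries, 216, 199, 228 and 161 in MEF2A libraries and 251, 226, 232, 295 and 256 in Controls. All 10 had a log2 fold change above 0 in YAP5SA against MEF2A, with a median of 0.58, and 2 of them passed. In MEF2A against Control 9 of 10 were below 0, with a median of -0.53.

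Cdt1, which brings the Mcm ring to origins and is normally destroyed once S phase begins, rose in YAP5SA against MEF2A (chromosome 8, 122568015 to 122573554). Its levels were 26.4 and 28.3 CPM in YAP5SA_MEF2A libraries, 27.8, 32.4 and 38.2 in YAP5SA libraries, 17, 15, 13.8 and 13.6 in MEF2A libraries and 17.9, 20.5, 19.8, 27.3 and 25 in Controls. Every YAP5SA library was above every Control and every Control above every MEF2A library. In YAP5SA against MEF2A the log2 fold change of Cdt1 was 1.15 ± 0.21 (SE, here and below), with an adjusted p of 0.00206. It was 0.60 ± 0.21 in YAP5SA against Control (adjusted p = 0.0728) and -0.55 ± 0.19 in MEF2A against Control (adjusted p = 0.606), neither of which passed. In YAP5SA against Control Cdt1 was called by DESeq2 (adjusted p = 0.0281) and in edgeR's test with the sex term (adjusted p = 0.0298).

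Orc1, the subunit of the origin recognition complex whose level follows the cell cycle, rose in YAP5SA against MEF2A (chromosome 4, 108579423 to 108614833). It stood at 9.62 and 8.76 CPM in YAP5SA_MEF2A libraries, 11, 12.1 and 6.62 in YAP5SA libraries, 4.57, 3.68, 5.57 and 2.25 in MEF2A libraries and 9.75, 9.26, 9.06, 9.11 and 5.31 in Controls. The MEF2A libraries were below all YAP5SA libraries but overlapped Control 5. Orc1 had a log2 fold change of 1.21 ± 0.36 in YAP5SA against MEF2A (adjusted p = 0.0307) and -1.10 ± 0.32 in MEF2A against Control (adjusted p = 0.579). The first of these lost its call without YAP5SA 1, 2 or 3, without MEF2A 1, 2 or 4 or without either YAP5SA_MEF2A library. In YAP5SA against Control the log2 fold change of Orc1 was 0.11 ± 0.35 (adjusted p = 0.889).

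Orc6, another subunit of that complex, had the highest level per exon length of all members, 24.5 CPM per kilobase over the 14 libraries. It was at 60.8 and 58.6 CPM in YAP5SA_MEF2A libraries, 72.8, 66.6 and 48.9 in YAP5SA libraries, 62.4, 71.0, 66.2 and 49.0 in MEF2A libraries and 42.7, 49.2, 60.1, 70.8 and 68.5 in Controls. The groups overlapped throughout, and the values were 0.02 ± 0.22 (log2 fold change) in YAP5SA against MEF2A and 0.10 ± 0.19 in MEF2A against Control, where it was the 1 member above 0. Its highest library was 1.70 times its lowest.

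The 6 Mcm ring genes did not pass in any comparison over the 14 libraries, and Mcm2, Mcm4 and Mcm7 had adjusted p values from 0.236 to 0.599 in YAP5SA against MEF2A. Mcm5 had 47.4 and 45.9 CPM in YAP5SA_MEF2A libraries, 27.2 to 61.5 in YAP5SA libraries, 22.9 to 34.9 in MEF2A libraries and 19.9 to 69.9 in Controls. In Mcm3 the Controls ran from 2.28 to 17.3 CPM, wider than the 9.03 to 17.4 of the YAP5SA libraries, and its log2 fold change in YAP5SA against MEF2A was 1.30 ± 0.50 (adjusted p = 0.0913, called in 5 of 29 alternative settings). Mcm6 was at 0.62 ± 0.26 there (adjusted p = 0.117). In YAP5SA against Control Mcm3 was at 0.99 ± 0.47 (adjusted p = 0.200, called higher in 4 of 29 alternative settings). Cdc6, which loads the ring with Cdt1, had 2.34 to 4.62 CPM in MEF2A libraries against 4.77 to 11.3 in Controls (-0.97 ± 0.36, adjusted p = 0.612).

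Of the 6 genes of helicase activation, none passed in any comparison over the 14 libraries. All 6 were above 0 in YAP5SA against MEF2A, with a median log2 fold change of 0.32, and all 6 below 0 in MEF2A against Control (-0.52). Mcm10, which helps the assembled helicase to start, had 18.8 and 20.3 CPM in YAP5SA_MEF2A libraries, 18.3, 17.9 and 24.6 in YAP5SA libraries, 15, 14.9, 15.4 and 19.5 in MEF2A libraries and 41.0, 38.3, 14.6, 33.7 and 19.8 in Controls. Control 1, 2 and 4 were above all libraries of the virus groups, while Control 5 lay among them and Control 3 below them. Its log2 fold change was -0.66 ± 0.36 in YAP5SA_MEF2A against Control (adjusted p = 0.451) and -0.85 ± 0.27 in MEF2A against Control (adjusted p = 0.595).

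Gins4, a subunit of the GINS complex and the highest of this group per exon length at 8.53 CPM per kilobase, varied little. It had 10.4 and 9.04 CPM in YAP5SA_MEF2A libraries, 11.7, 13.9 and 12.8 in YAP5SA libraries, 9.96, 8.42, 13.3 and 12 in MEF2A libraries and 14.5, 12.8, 11.8, 9.78 and 10.7 in Controls. Cdc45, the factor that completes the helicase, had 5.00 and 7.02 CPM in YAP5SA_MEF2A libraries, 5.94 to 8.92 in YAP5SA libraries, 2.75 to 4.80 in MEF2A libraries and 4.19 to 10.5 in Controls. Its log2 fold change was 0.93 ± 0.35 in YAP5SA against MEF2A (adjusted p = 0.0847, 0.0292 by DESeq2). The GINS subunits Gins1, Gins2 and Gins3 lay between 0.13 and 0.50 there.

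The 14 genes of the polymerases, primase, clamp and single-strand binding held 3 of the 9 members that rose in YAP5SA against MEF2A and the 1 that fell. Their summed level was 382 and 340 CPM in YAP5SA_MEF2A libraries, 282, 386 and 320 in YAP5SA libraries, 359, 286, 401 and 330 in MEF2A libraries and 468, 400, 413, 518 and 398 in Controls. This sum did not separate YAP5SA from MEF2A, and its largest single part on average over the libraries was Rfc2.

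Rfc2, a small subunit of the clamp loader, had the second highest level per exon length of the members, 19.9 CPM per kilobase, and was the 1 member that fell (chromosome 5, 134581366 to 134601805). It had 99.7 and 88.6 CPM in YAP5SA_MEF2A libraries, 63.6, 107 and 60.6 in YAP5SA libraries, 126, 102, 166 and 147 in MEF2A libraries and 169, 144, 181, 166 and 137 in Controls. All 5 Controls were above all libraries with YAP5SA, and YAP5SA 2 overlapped MEF2A 2. Rfc2 fell by 1.02 ± 0.23 on the log2 scale in YAP5SA against Control (adjusted p = 0.00814) and by 0.79 ± 0.23 in YAP5SA against MEF2A (adjusted p = 0.0285). The second call was lost in 10 of 29 alternative settings, over which its log2 fold change ran from -1.39 to -0.27. These included the marker term, library totals as the only scaling, and leaving out YAP5SA 1 or 3 or MEF2A 1, 3 or 4.

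The value of Rfc2 in YAP5SA_MEF2A against Control was -0.72 ± 0.27 (adjusted p = 0.216), which did not pass. Its call in YAP5SA against Control was lost without YAP5SA 1, without YAP5SA 3, in batch 1 alone, with library totals as the only scaling, and without Control 1, Control 2 and YAP5SA 3 together. Of its 6303 exon bases 952 overlap Lat2 on the other strand, which had 0 to 333 counts per library against 1105 to 4940 for Rfc2. Rfc1, the large subunit of the loader, was at -0.36 ± 0.18 in YAP5SA against Control (adjusted p = 0.222).

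Rfc5, a further clamp loader subunit, was higher in YAP5SA than in MEF2A. It had 8.07 and 9.04 CPM in YAP5SA_MEF2A libraries, 12.5, 9.91 and 12.4 in YAP5SA libraries, 6.48, 4.18, 7.10 and 3.95 in MEF2A libraries and 4.76, 3.91, 4.81, 12.6 and 6.89 in Controls. All YAP5SA libraries were above all MEF2A libraries, and Control 4 was as high as YAP5SA 1. The log2 fold change was 1.16 ± 0.38 (adjusted p = 0.0485), and the call held in 11 of 29 alternative settings, the fewest of the called members. In YAP5SA against Control the log2 fold change was 0.96 ± 0.38 (adjusted p = 0.115).

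Pcna, the sliding clamp that tethers polymerases to DNA, rose in YAP5SA against MEF2A (chromosome 2, 132249162 to 132253314). It had 10.3 and 5.56 CPM in YAP5SA_MEF2A libraries, 10.8, 8.59 and 12.6 in YAP5SA libraries, 4.19, 1.75, 3.98 and 2.80 in MEF2A libraries and 9.64, 5.87, 3.92, 9.78 and 8.28 in Controls. The MEF2A libraries were below all others but Control 3. Pcna had a log2 fold change of 1.76 ± 0.41 in YAP5SA against MEF2A (adjusted p = 0.00856), and the call was lost without YAP5SA 3. It was -1.22 ± 0.37 in MEF2A against Control (adjusted p = 0.595) and 0.53 ± 0.39 in YAP5SA against Control (adjusted p = 0.424). The processed copy Pcna-ps2 had 3.72 to 5.46 CPM in YAP5SA libraries and 0.912 to 3.60 in MEF2A libraries, a log2 fold change of 1.02 ± 0.58 (adjusted p = 0.25).

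Rpa1, the large subunit of the protein that coats single-stranded DNA, rose in YAP5SA against MEF2A. It had 20.9 and 18.2 CPM in YAP5SA_MEF2A libraries, 20.8, 16.3 and 20.9 in YAP5SA libraries, 13.4, 11, 10.4 and 9.79 in MEF2A libraries and 23.5, 18.3, 13.1, 18.2 and 16.8 in Controls. Only Control 3 lay within the range of the MEF2A libraries. The log2 fold change was 0.77 ± 0.24 (adjusted p = 0.0348), held in 13 of 29 settings. In YAP5SA against Control it was 0.07 ± 0.23 (adjusted p = 0.896). Prim1, the catalytic subunit of primase, was highest in Controls and did not pass in any comparison. It had 28.1 and 23.6 CPM in YAP5SA_MEF2A libraries, 18.5, 29.1 and 26.6 in YAP5SA libraries, 29.998, 17.4, 35 and 21.1 in MEF2A libraries and 55.9, 35.7, 29.3, 54.2 and 33.5 in Controls. The values against Control were -0.68 ± 0.35 in YAP5SA_MEF2A (adjusted p = 0.411), -0.75 ± 0.28 in YAP5SA (adjusted p = 0.103) and -0.69 ± 0.26 in MEF2A (adjusted p = 0.612).

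The catalytic polymerase subunits did not pass either. Pold1, of the lagging-strand polymerase delta, had 74.7 and 67.8 CPM in YAP5SA_MEF2A libraries, 50.3 to 70.8 in YAP5SA libraries, 48.4 to 63.5 in MEF2A libraries and 44.9 to 91.9 in Controls. Pole, of the leading-strand polymerase epsilon, had 50.5 and 46.6 CPM in YAP5SA_MEF2A libraries, 27.3 to 48.7 in YAP5SA libraries, 13.1 to 35.6 in MEF2A libraries and 18.4 to 54.8 in Controls. In both genes the libraries with both viruses were above all MEF2A libraries and within the range of the Controls. Pola1, Prim2, Rfc3, Rfc4, Rpa2 and Rpa3 did not pass in any comparison, with log2 fold changes from -0.30 to 0.75 in YAP5SA against MEF2A.

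**Figure D3:**
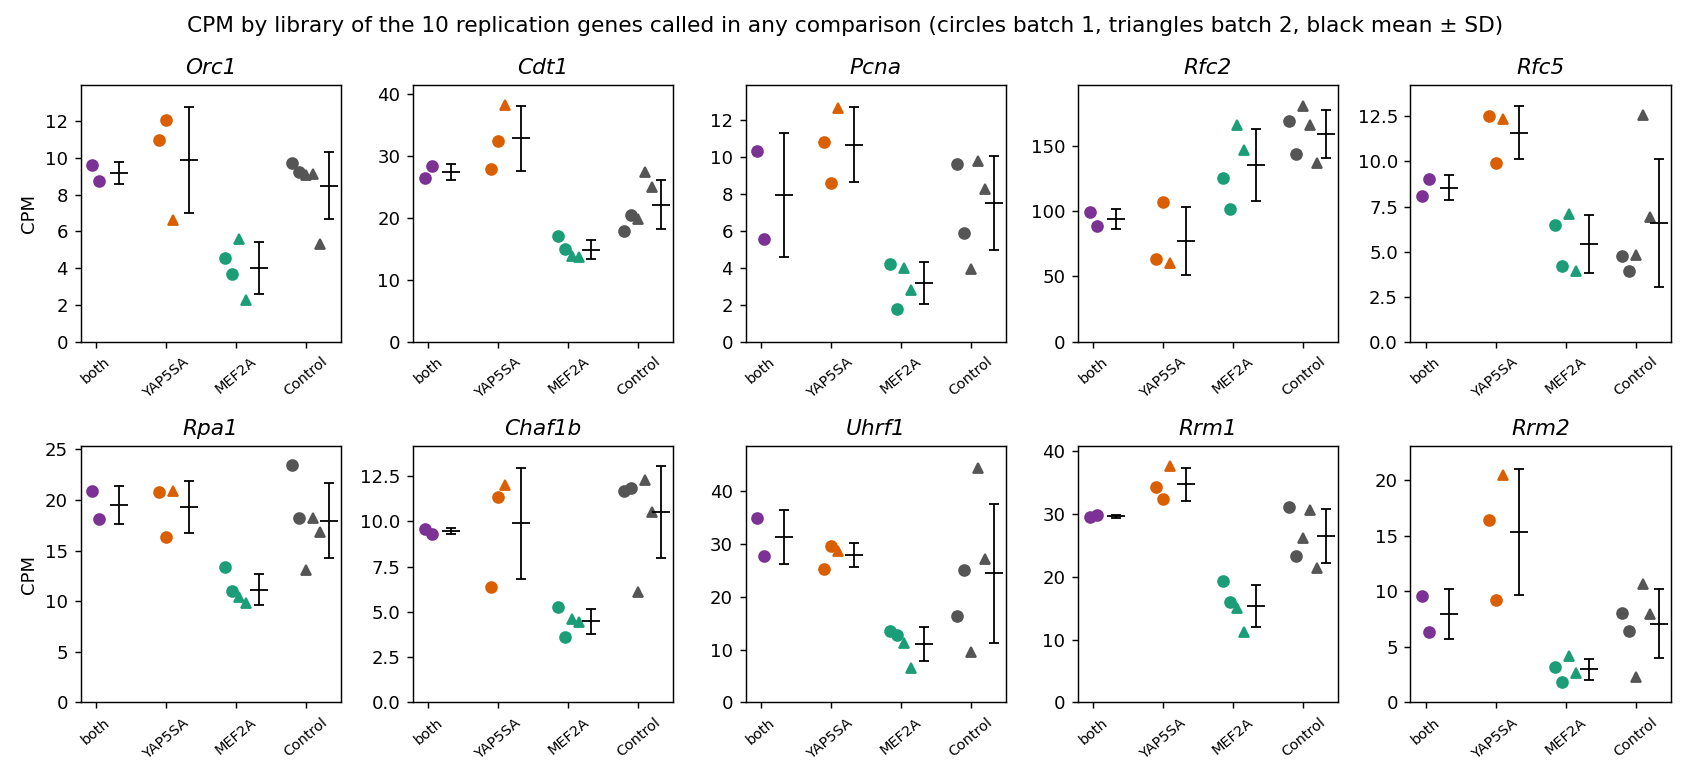
CPM of the called members in each library, with the 4 groups on the horizontal axis (YAP5SA_MEF2A written as both, YAP5SA, MEF2A, Control), circles for libraries of batch 1, triangles for batch 2 and black marks for the group mean with bars of 1 SD. In all panels but that of Rfc2 the MEF2A group has the lowest mean, and in Rfc2 the Controls have the highest and the YAP5SA libraries the lowest.

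The 5 tested genes of Okazaki fragment maturation, chromatin and histone mRNA had a median log2 fold change of -0.95 in MEF2A against Control, the lowest of the 6 roles, and of 1.14 in YAP5SA against MEF2A. Their sum was 118 and 105 CPM in YAP5SA_MEF2A libraries, 91.9, 117 and 115 in YAP5SA libraries, 68.0, 57.2, 87.9 and 48.9 in MEF2A libraries and 97.9, 126, 88.0, 165 and 107 in Controls. Each MEF2A library was below each library of every other group, but MEF2A 3 (87.91) and Control 3 (87.97) were nearly equal.

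Chaf1b, a subunit of the assembly factor that places histones on new DNA, rose in YAP5SA against MEF2A (chromosome 16, 93883901 to 93906115). It had 9.58 and 9.33 CPM in YAP5SA_MEF2A libraries, 6.38, 11.3 and 12 in YAP5SA libraries, 5.28, 3.62, 4.61 and 4.44 in MEF2A libraries and 11.7, 11.9, 6.12, 12.3 and 10.5 in Controls. Every MEF2A library was below every other library. The log2 fold change was 1.14 ± 0.33 in YAP5SA against MEF2A (adjusted p = 0.0288), held in 15 of 29 settings, and -1.22 ± 0.30 in MEF2A against Control (unadjusted p = 0.000804, adjusted p = 0.402 in edgeR's test). In YAP5SA against Control Chaf1b was at -0.08 ± 0.32 (adjusted p = 0.909). Its partner Chaf1a, much of whose exon length is shared with Ubxn6, had 5.35 to 7.02 CPM in MEF2A libraries, and its log2 fold change in YAP5SA against MEF2A was 1.19 ± 0.40 (adjusted p = 0.055, called in 9 of 29 alternative settings).

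Uhrf1, which reads hemimethylated DNA behind the fork and recruits the maintenance methyltransferase, rose in YAP5SA against MEF2A (chromosome 17, 56303321 to 56323486). It had 34.9 and 27.7 CPM in YAP5SA_MEF2A libraries, 25.3, 29.7 and 28.6 in YAP5SA libraries, 13.6, 12.7, 11.3 and 6.44 in MEF2A libraries and 16.3, 25, 9.47, 44.4 and 27.1 in Controls. The Controls spread more widely than all the virus groups together. The log2 fold change was 1.34 ± 0.39 (adjusted p = 0.0312), held in 17 of 29 settings. In YAP5SA against Control it was 0.18 ± 0.39 (adjusted p = 0.827). Lig1, the ligase that seals Okazaki fragments, is the highest of the group per exon length at 10.6 CPM per kilobase and did not pass. It had 42.5 and 40.6 CPM in YAP5SA_MEF2A libraries, 35.6, 49.9 and 37.8 in YAP5SA libraries, 30.5, 26.6, 54.6 and 28.9 in MEF2A libraries and 44.7, 69.8, 57.4, 68.7 and 43.4 in Controls. Both YAP5SA_MEF2A libraries were just below the lowest Control. Slbp, the binding protein of histone mRNA, had 3.77 to 11.6 CPM in MEF2A libraries against 10.04 to 19.9 in Controls.

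For nucleotide supply, both subunits of ribonucleotide reductase, the enzyme that makes deoxynucleotides, rose in YAP5SA against MEF2A. Rrm2, the small subunit made in S phase, had the largest fold change of all members (chromosome 12, 24708241 to 24714146). It had 9.58 and 6.37 CPM in YAP5SA_MEF2A libraries, 16.4, 9.25 and 20.5 in YAP5SA libraries, 3.21, 1.87, 4.17 and 2.67 in MEF2A libraries and 8.05, 6.39, 2.33, 10.7 and 7.97 in Controls. All YAP5SA libraries were above all MEF2A libraries, and YAP5SA 2 lay within the range of the Controls. Its log2 fold change there was 2.40 ± 0.45 (adjusted p = 0.00215), and it passed in 29 of 29 settings. It was 1.16 ± 0.41 in YAP5SA against Control (adjusted p = 0.0813) and -1.23 ± 0.40 in MEF2A against Control (adjusted p = 0.6).

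Rrm1, the large subunit, separated the groups as Cdt1 did (chromosome 7, 102441695 to 102469771). It had 29.4 and 29.8 CPM in YAP5SA_MEF2A libraries, 34.2, 32.3 and 37.5 in YAP5SA libraries, 19.4, 15.9, 15 and 11.1 in MEF2A libraries and 31.1, 23.2, 26.1, 30.6 and 21.4 in Controls. The YAP5SA libraries were all above the Controls and the Controls all above the MEF2A libraries, with the YAP5SA_MEF2A libraries among the Controls. Rrm1 had a log2 fold change of 1.17 ± 0.22 in YAP5SA against MEF2A (adjusted p = 0.00234) and -0.81 ± 0.20 in MEF2A against Control (unadjusted p = 0.00079, adjusted p = 0.402 in edgeR's test). In YAP5SA against Control it was 0.36 ± 0.21 (adjusted p = 0.316). Tk1, the thymidine kinase of the salvage route, is the highest of the group per exon length at 9.30 CPM per kilobase and did not pass. It had 63.3 and 48.7 CPM in YAP5SA_MEF2A libraries, 43.9, 63.7 and 34.2 in YAP5SA libraries, 40.8, 31.1, 47.7 and 24.7 in MEF2A libraries and 52.6, 24.9, 64.3, 77.6 and 59.6 in Controls. Control 2 was as low as MEF2A 4. Tyms, which makes thymidylate, had 10.4 to 21.5 CPM in MEF2A libraries against 12.9 to 30.9 in Controls. Dut, which removes dUTP, had 6.14 to 16.7 CPM in MEF2A libraries against 5.74 to 20.03 in Controls.

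Among the E2F factors, E2f1 and E2f2 are activators and E2f7 and E2f8 repressors of the S phase programme. None passed in any comparison over the 14 libraries. In all 4 genes each YAP5SA_MEF2A and each YAP5SA library was above each MEF2A library. Over all genes 22.8% had every YAP5SA_MEF2A library, and 15.9% every YAP5SA library, above all MEF2A libraries. The sum of the 4 E2F genes was 30.3 and 27.1 CPM in YAP5SA_MEF2A libraries, 26.1, 30.8 and 32.4 in YAP5SA libraries, 16.2, 15.4, 14.1 and 11.4 in MEF2A libraries and 33.4, 21.5, 7.71, 39.0 and 32.3 in Controls. Control 3 was the lowest of the 14 libraries and Control 4 the highest. E2f1 had 11.2 and 10.2 CPM in YAP5SA_MEF2A libraries, 10.5, 9.60 and 8.37 in YAP5SA libraries, 4.74, 5.37, 3.17 and 1.64 in MEF2A libraries and 6.69, 7.82, 2.16, 10.9 and 8.09 in Controls. Its log2 fold change was 1.33 ± 0.44 in YAP5SA against MEF2A (adjusted p = 0.0515 in edgeR's test, 0.0224 by DESeq2 and called in 11 of 29 alternative settings) and -1.05 ± 0.41 in MEF2A against Control (adjusted p = 0.612). E2f2 ran from 0.612 CPM in Control 3 to 18.0 in Control 1, and E2f8 from 0 counts in Control 2 to 10.1 CPM in YAP5SA 3.

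**Figure D4:**
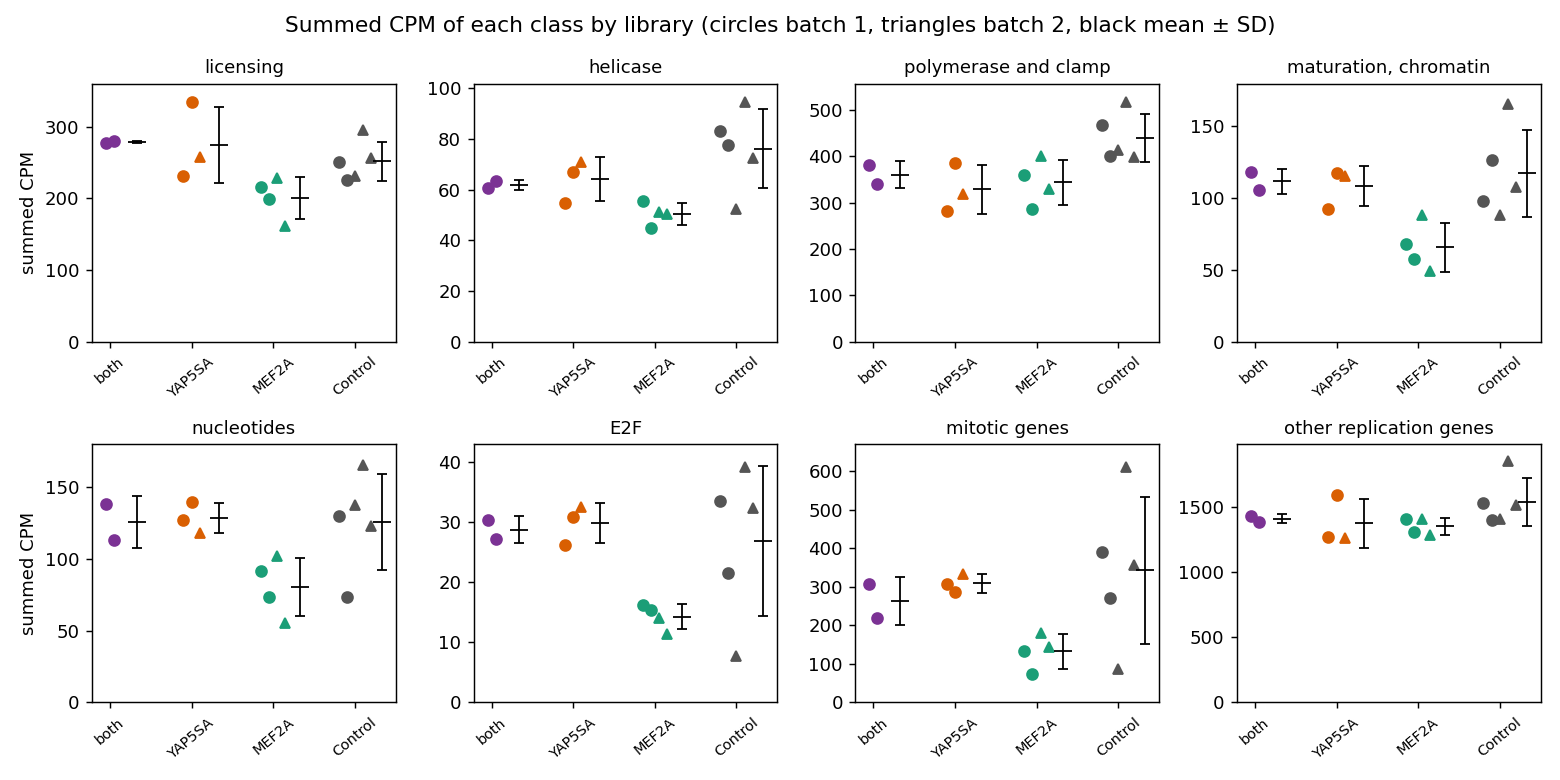
Summed CPM (vertical axis) of the members of each role, and of the mitotic and other replication genes described after the promoters, in each library, with groups on the horizontal axis (YAP5SA_MEF2A written as both, YAP5SA, MEF2A, Control), circles for libraries of batch 1, triangles for batch 2 and black marks for the group mean with bars of 1 SD. The group mean is lowest in MEF2A for every role but the polymerase group, where it is lowest in YAP5SA.

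Promoters were read for E2F-type letters because E2F factors are the known activators of these genes. RefSeq promoter entries (GRCm38.p6) were found for 38 of the 45 members. In the 250 bases before the start, TTTGGCGC, TTTGCCGC, TTTCGCGC or TTTCCCGC, on either strand and overlapping each other in part, occurred in 10 of these 38 members (26.3%). They occurred in 3.47% of 12290 other tested genes. Among the members that rose in YAP5SA against MEF2A 2 of 9 held a match, and among the other members 8 of 29. The median log2 fold change in YAP5SA against MEF2A was 0.56 over the 10 with a match and 0.76 over 27 tested members without. The motif CCAAT occurred in 68.4% of the members and 39.3% of the other genes. The stretches shown are those of the 2 called members with a match, Orc1 and Uhrf1, and of Mcm5 and Mcm6, which hold overlapping matches. Each is written 5′ to 3′ on the strand of its gene, ends 11 bases before the RefSeq start, and has the matching letters in capitals. Orc1 is at chr4:108579337-108579443 on the plus strand, Uhrf1 at chr17:56304113-56304302 on the plus strand, Mcm5 at chr8:75109309-75109498 on the plus strand and Mcm6 at chr1:128359716-128359905 on the minus strand.
Orc1: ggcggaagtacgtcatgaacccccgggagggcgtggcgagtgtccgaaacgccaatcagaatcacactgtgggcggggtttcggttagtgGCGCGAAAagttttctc
Uhrf1: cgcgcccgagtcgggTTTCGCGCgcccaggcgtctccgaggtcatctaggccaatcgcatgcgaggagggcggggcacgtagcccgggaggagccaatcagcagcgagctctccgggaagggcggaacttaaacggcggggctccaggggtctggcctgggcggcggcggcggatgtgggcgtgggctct
Mcm5: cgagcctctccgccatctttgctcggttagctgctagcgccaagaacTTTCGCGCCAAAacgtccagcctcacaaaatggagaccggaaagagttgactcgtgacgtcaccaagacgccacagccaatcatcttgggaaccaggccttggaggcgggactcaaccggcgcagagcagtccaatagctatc
Mcm6: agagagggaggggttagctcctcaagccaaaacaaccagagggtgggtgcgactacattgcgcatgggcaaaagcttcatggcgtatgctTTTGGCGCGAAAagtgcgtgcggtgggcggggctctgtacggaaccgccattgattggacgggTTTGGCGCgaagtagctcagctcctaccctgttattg
The match in Orc1 begins 27 bases before the RefSeq start and that in Uhrf1 185 bases before it. By the GENCODE gene positions given above, which begin further upstream, both of these matches lie inside the gene. In Mcm5 matches of opposite strands begin 153 and 149 bases before the start and share letters. In Mcm6 they begin 110, 106 and 47 bases before it, the first pair sharing letters. A match describes these letters only and not a bound site.

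Other genes of replication showed both directions. Of 42 further replication and S phase genes, 7 were higher (16.7%, against 7.77% of all genes) and 3 lower (7.14%, against 7.12%) in YAP5SA against MEF2A, with a median log2 fold change of 0.39. Those with the smallest p were Topbp1, which helps to fire origins (0.81), Dbf4, the activator of the Cdc7 kinase (1.50), Nasp, a histone chaperone (-0.95), the topoisomerase Top2a (2.17) and Pole3, an accessory subunit of polymerase epsilon (1.16). In YAP5SA against Control 1 was higher (2.38%, against 5.69% of all genes) and 3 were lower (7.14%, against 4.17%): the histone chaperone Asf1a (1.92), and Pola2 of polymerase alpha (-0.85), Nasp (-0.90) and geminin, Gmnn, which blocks Cdt1 (-0.98). In MEF2A against Control 0 of the 42 passed, with 0 higher and 9 lower (21.4%, against 3.85% of all genes) at an unadjusted p under 0.05 in edgeR's test and a median of -0.28.

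Of 20 E2F partners, pocket proteins, S phase cyclins and their inhibitors, 3 were higher in YAP5SA against MEF2A (15%, against 7.77% of all genes): cyclin E1, Ccne1, which drives entry into S phase (1.79), Cdkn1a, an inhibitor of cyclin-dependent kinases (1.30), and E2f4, a repressor E2F (0.77). In YAP5SA against Control 3 were higher (15%, against 5.69%), namely E2f4 (1.12), Cdkn1a (1.42) and the G1 cyclin Ccnd3 (1.16). Genes of mitosis were measured beside them. Of 10 mitotic markers 6 were higher in YAP5SA against MEF2A (60%, against 7.77% of all genes) and 0 lower. Those higher were Top2a, Cdk1, Ccnb2, Aurkb, Kif11 and Birc5, of which Top2a is also counted among the 42 further replication genes. None of the 10 mitotic markers was called in YAP5SA against Control (9.86% of all genes were), with a median of 0.17. In MEF2A against Control 0 of the 10 mitotic markers passed, with a median of -1.40. At an unadjusted p under 0.05 in edgeR's test 9 of these markers were lower there (90%, against 3.85% of all genes). Their summed level was 308 and 220 CPM in YAP5SA_MEF2A libraries, 307, 286 and 333 in YAP5SA libraries, 132, 72.8, 181 and 143 in MEF2A libraries and 390, 270, 86.2, 610 and 358 in Controls. Control 3 lay within the range of the MEF2A libraries and Control 4 was the highest of the 14.

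Markers of cardiomyocytes and of other cell types differed between the same libraries. Which cell types the member transcripts came from was not tested. In YAP5SA against MEF2A 8 of the 10 cardiomyocyte markers were called lower (80%, against 7.12% of all genes), with a median of -0.91. There 1, Nppa, was called higher (10%, against 7.77%). In MEF2A against Control none of the 10 was called (median 0.31). At an unadjusted p under 0.05 in edgeR's test 3 of these 10 were higher there (30%) and 0 lower. The 10 summed to 89105 to 95165 CPM in MEF2A libraries and 54359 to 96645 in Controls. The 8 macrophage markers summed to 85.8 and 85.4 CPM in YAP5SA_MEF2A libraries, 180, 78.4 and 835 in YAP5SA libraries, 56.6 to 88.4 in MEF2A libraries and 51.9 to 167 in Controls. Of the 8, 4 were higher in YAP5SA against MEF2A (50%, against 7.77% of all genes). Adgre1 and Cx3cr1 were at 0 in Control 3. The 8 fibroblast markers summed to 1538 and 1461 CPM in YAP5SA_MEF2A libraries, 1733, 1775 and 3083 in YAP5SA libraries, 1358 to 2065 in MEF2A libraries and 1264 to 2163 in Controls, with 3 of 8 higher in YAP5SA against MEF2A (37.5%, against 7.77% of all genes). The 8 endothelial markers summed to 313 and 283 CPM in YAP5SA_MEF2A libraries, 168 to 354 in YAP5SA libraries, 391 to 454 in MEF2A libraries and 307 to 697 in Controls, with 3 of 8 called lower in YAP5SA against MEF2A (37.5%, against 7.12% of all genes). The 6 mural cell markers summed to 365 and 350.3 CPM in YAP5SA_MEF2A libraries, 381 to 453 in YAP5SA libraries, 422 to 510.0 in MEF2A libraries and 337 to 512 in Controls, with 0 of 6 called. The 6 erythroid markers summed to 148 and 82.1 CPM in YAP5SA_MEF2A libraries and 51.3 to 325 in YAP5SA libraries. They summed to 54.5 to 288 in MEF2A libraries and 155 to 450 in Controls. In MEF2A against Control their median was -1.07, with 0 of 5 tested called. At an unadjusted p under 0.05 in edgeR's test 2 of them were lower there (40%, against 3.85% of all genes). Of 5 tested lymphocyte markers 0 were called in YAP5SA against MEF2A. Of 6 epicardial and Schwann markers 2 were higher there (33.3%, against 7.77% of all genes) and 1 lower (16.7%, against 7.12%). The highest macrophage and fibroblast sums were both in YAP5SA 3, which was the highest of 14 libraries for 7 members. With the mean level of these 30 macrophage, fibroblast, endothelial and mural markers as a term, Cdt1, Orc1, Pcna, Rrm1 and Rrm2 passed in YAP5SA against MEF2A and the median was 0.63. The calls of Rfc2, Rfc5, Rpa1, Chaf1b and Uhrf1 were lost in that fit, with adjusted p from 0.0665 to 0.148 and log2 fold changes of -0.63, 1.27, 0.61, 0.91 and 1.19 in that order. The macrophage, fibroblast, endothelial and mural lists had medians of 2.45, 0.41, -0.66 and -0.34 in YAP5SA against MEF2A. Their mean level therefore does not follow any single cell type, and cardiomyocyte markers were not part of it. Without Control 1, Control 2 and YAP5SA 3, Cdt1 and Rrm2 passed.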

How the data were processed

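RNA-seq of PCM1-enriched heart nuclei was analysed from 14 libraries. The table holds raw counts of reads per gene as deposited, whole numbers without normalization. STAR, limma and edgeR are named in the submitters' processing notes, with build GRCm38. Versions, the counting program and the strand setting are not given in the sources used here, and per the labels the libraries were non-directional and polyA-selected. Batch and replicate numbers came from the labels.

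Symbols, positions and exon lengths were taken by gene ID from GENCODE vM21 (54409 of 54446 genes had a symbol), and promoters from RefSeq (GRCm38.p6). In R 4.3.3, genes were kept by edgeR 4.0.16's filterByExpr (minimum count 10, total 15), leaving 17987. Counts were scaled by TMM and tested over all 14 libraries with edgeR's quasi-likelihood F-test (robust, group and batch as terms, 9 residual degrees of freedom). Called means a two-sided p under 0.05 after Benjamini-Hochberg adjustment over all genes tested. SE is the log2 fold change divided by the square root of F. The biological coefficient of variation common to all genes was 0.503. Each virus group was compared with Control and the virus groups with each other, which with the interaction makes 7 comparisons. CPM uses TMM-scaled totals, and log2 CPM a prior count of 2. A count of 3 equals 0.101 to 0.391 CPM. No 2 columns were identical.

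A member is given in full where it is called, is among the 3 smallest p in a comparison with Control, or has the highest CPM per kilobase of its role, which gave 17 members. Other listed genes are named when called, at most 5 per comparison. Members and lists were chosen with earlier results of these data known. Alternatives were RLE or library-total scaling, DESeq2 1.42.0, no or a stricter filter, no batch term, the replicate number as a block, only the groups compared, each batch alone, mitochondrial genes removed, a marker term and each library left out. A sex term was chosen after seeing the data.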

Additional observations from a re-analysis of the deposited data

Results flagged for a closer look

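Of 48 groups of 4 or 5 values checked, of which chance alone flags about 1 in 20, 4 held a library far from the rest of its group. Orc1 was at 5.31 CPM in Control 5, against 9.06 in the nearest Control. Mcm10 was at 19.5 CPM in MEF2A 4, against 15.4 in the nearest MEF2A library. Lig1 was at 54.6 CPM in MEF2A 3, against 30.5 in the nearest MEF2A library. Chaf1b was at 6.12 CPM in Control 3, against 10.5 in the nearest Control.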

How the results depend on the processing

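Of 319 recomputed values of called members, 225 kept their call, 94 lost it and 0 changed sign. In YAP5SA against MEF2A, 10 members were called, 2 in batch 1 alone, 4 in batch 2 alone, 5 with the marker term, 14 with only the groups compared or without Control 1 and 2, 13 by DESeq2, 12 with RLE, no filter, mitochondrial genes removed or the sex term, 2 without Control 1, Control 2 and YAP5SA 3, and 3 to 12 when a library was left out. In YAP5SA against Control, 1 was called, and 2 with library totals, DESeq2, no filter, batch 2 alone or without Control 1 and 2, 3 with the sex term, 0 without Control 1, Control 2 and YAP5SA 3, and 0 to 2 when a library was left out. In MEF2A against Control, 0 were called, 2 by DESeq2, 1 with no filter, 1 in batch 1 alone and 0 to 2 when a library was left out. In YAP5SA_MEF2A against Control, 1 was called in batch 1 alone. In YAP5SA_MEF2A against MEF2A, 1 was called with RLE, library totals, the stricter filter, no batch term, mitochondrial genes removed or without Control 1 and 2, 2 with no filter or the marker term, 3 by DESeq2, 7 with only the groups compared and 0 to 4 when a library was left out. The causes were not tested. YAP5SA_MEF2A against YAP5SA and the interaction had 0 members called in every setting run.

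Library totals as the only scaling moved the median of all genes to 0.69 in YAP5SA against Control, 0.84 in YAP5SA_MEF2A against Control, 0.21 in MEF2A against Control, 0.51 in YAP5SA against MEF2A, 0.19 in YAP5SA_MEF2A against YAP5SA and 0.67 in YAP5SA_MEF2A against MEF2A. The members' medians were then 0.64, 0.84, -0.36, 0.94, 0.20 and 1.26. The members' median in MEF2A against Control ran from -0.75 to -0.36 over the settings. The sex term moved the members' median to 0.94 in YAP5SA against MEF2A and -0.41 in YAP5SA_MEF2A against YAP5SA.

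The replicate numbers gave no sign of pairing: deviations from the group mean of 16 same-numbered pairs correlated at -0.184 to 0.0894. With 2 to 5 libraries per group, such correlations cannot show whether same-numbered libraries shared an origin. With the replicate block in place of batch, 4 members were called in YAP5SA against MEF2A.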
